A study of Mus musculus with 12 samples.

Results

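In bulk RNA-seq of mouse OT-I CD8 T cells, 72 of 21897 protein-coding genes had their peak in cells labelled effector, which were made in culture. A gene was taken when its mean over the 3 effector libraries was at least 10 CPM, counts per 1000000 gene counts, and that mean plus 1 was at least 2 times the mean plus 1 of each other group. CPM is the gene's unstranded count over all gene counts of its library on that scale. The members were thus chosen by measured values, the group mean CPM of these same libraries, so their height in effector libraries is described below without a test. Tests are given only for comparisons among the other 3 groups.

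The series holds 12 libraries in 4 groups of 3, all of OT-I genotype, a transgenic T cell receptor for an ovalbumin peptide, with no treatment listed. Naive cells, given as day 0, were isolated from the lymph nodes of tumour-free OT-I animals. Effector cells were stimulated with antigen in vitro for 5 days. The day 4 and day 14 groups, called exhausted in the labels, were CD44+ OT-I cells sorted out of B78ChOVA melanomas in C57Bl6/J mice 4 or 14 days after their transfer. B78ChOVA is a melanoma line that expresses ovalbumin. Effector cells therefore differ from all other groups in having been cultured, and the tumour groups from the others in a stated CD44 gate. The labels do not say which libraries share mice or cultures, so p-values measure only the spread between these samples, which may be technical. In bulk RNA, fewer cells of a type and less RNA per cell cannot be told apart.

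Naive T cells are held in a resting state by inhibitors of the cell cycle and of PI3K signalling, and they lower these brakes when antigen makes them grow and divide. Activated CD8 T cells gain receptors that steer them to inflamed tissue, such as CXCR3, and that receive differentiation signals, such as the IL-12 receptor. Interferons induce families of large GTPases and other restriction factors that protect cells against viruses and intracellular microbes, and GIMAP GTPases support the survival of lymphocytes.

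The libraries held 11937053 to 17094006 gene counts. All carried CD8 T cell markers, with a summed level of 9 defining genes of 5113 to 5392 CPM in effector and of 3061 to 5082 CPM in the other libraries. Effector libraries were low for macrophage (5.74 to 9.72 CPM summed over 12 genes), dendritic cell (9.59 to 23.4 over 10), B cell (8.07 to 14.96 over 9) and melanoma (38.8 to 42.3 over 8) markers, while tumour libraries had 482 to 1999 CPM of the melanoma markers. Macrophage markers summed to 66.7 to 127 CPM in tumour and 14.5 to 27.1 CPM in naive libraries. Dendritic cell markers summed to 141 to 228 and 13.4 to 38.5 CPM, and 8 fibroblast genes to 75.1 to 272 and 2.21 to 2.68 CPM. B cell markers overlapped, at 3.45 to 23.3 and 19.4 to 27.1 CPM, and endothelial markers were lower in tumour libraries. The part of these transcripts in rises of members over naive cells was not tested. A list of 6 CD4 T cell and Treg genes summed to 137 to 234 CPM in effector against 17.6 to 28.1 CPM in naive libraries, of which Il2ra, also an activation gene, had a mean of 152 CPM and Cd4 of 0.493 CPM in effector; its part in the results was not tested. No gene of the 13 marker lists was a member. The list of 9 mast cell and basophil genes summed to 11.4, 35.1 and 11.7 CPM in effector replicates 1, 2 and 3 against 1.34 to 2.03 CPM in naive libraries; Kit had a mean of 18.4 CPM in effector, 6 of the 9 genes were at 0 there, and the list's part in the results was not tested. A list of 23 cytotoxic genes summed to 1155 to 1694 CPM in effector, 1110 to 1240 CPM in naive and 4012 to 4855 CPM in day 14 libraries. Granzyme B, Gzmb, stood at 10.4, 181 and 30.3 CPM in effector, 1.64, 1.01 and 0.7899 CPM in naive and 1305, 975 and 918 CPM in day 14 libraries. Perforin, Prf1, stood at 10.1, 9.604 and 12.3 CPM in effector against 41.5, 48.4 and 40.6 CPM in naive libraries, and Ifng at 0, 0.328 and 0.363 CPM in effector libraries. Tcf7, a factor of naive and memory cells, was higher in every effector than in every naive library (1676, 1646 and 1749 against 1179.9, 1248 and 1285 CPM). The group keeps below the name that its labels give.

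Effector replicate 2 stood apart from the other effector libraries. It had 274, 1594 and 335 CPM summed over 24 mitosis genes in replicates 1, 2 and 3, and 41.03, 553 and 57.1 CPM of the proliferation marker Mki67. Its 24 type I interferon response genes summed to 1901 CPM against 1177 and 1328 CPM in effector replicates 1 and 3. Among naive libraries replicate 2 was highest for the same list, at 1468, 2568 and 1940.1 CPM in order. The part of these differences in the results below was not tested.

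Members spanned 10.1 to 3422 CPM in their effector mean, with a median of 60.1 CPM, and 4 exceeded 1000 CPM. These were Smc4, Gimap4, Samhd1 and Gm14085, on a scale not adjusted for gene length. The ratio of effector to the next group, both plus 1, ranged from 2.004 to 6.99 with a median of 2.56, and 22 members reached 3. The next highest group was naive for 47 members, day 14 for 14 and day 4 for 11, whereas naive was the lowest group for only 15. Members at least 10-fold below effector numbered 6 in naive, 12 in day 4 and 13 in day 14 cells. Together the members held 1.71% to 1.997% of gene counts in effector, 0.670% to 0.704% in naive and 0.302% to 0.354% in tumour libraries. All 3 effector libraries lay above all 9 others for 65 members, where the background among protein-coding genes of the same effector level was 10.2%; the rule used this contrast, so nothing is read from the count. A peak of this size was 0.939% of the 7664 protein-coding genes with an effector mean of at least 10 CPM. The same rule gave 128 genes with naive cells on top, 87 with day 4 and 143 with day 14 cells.

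**Figure D1:**
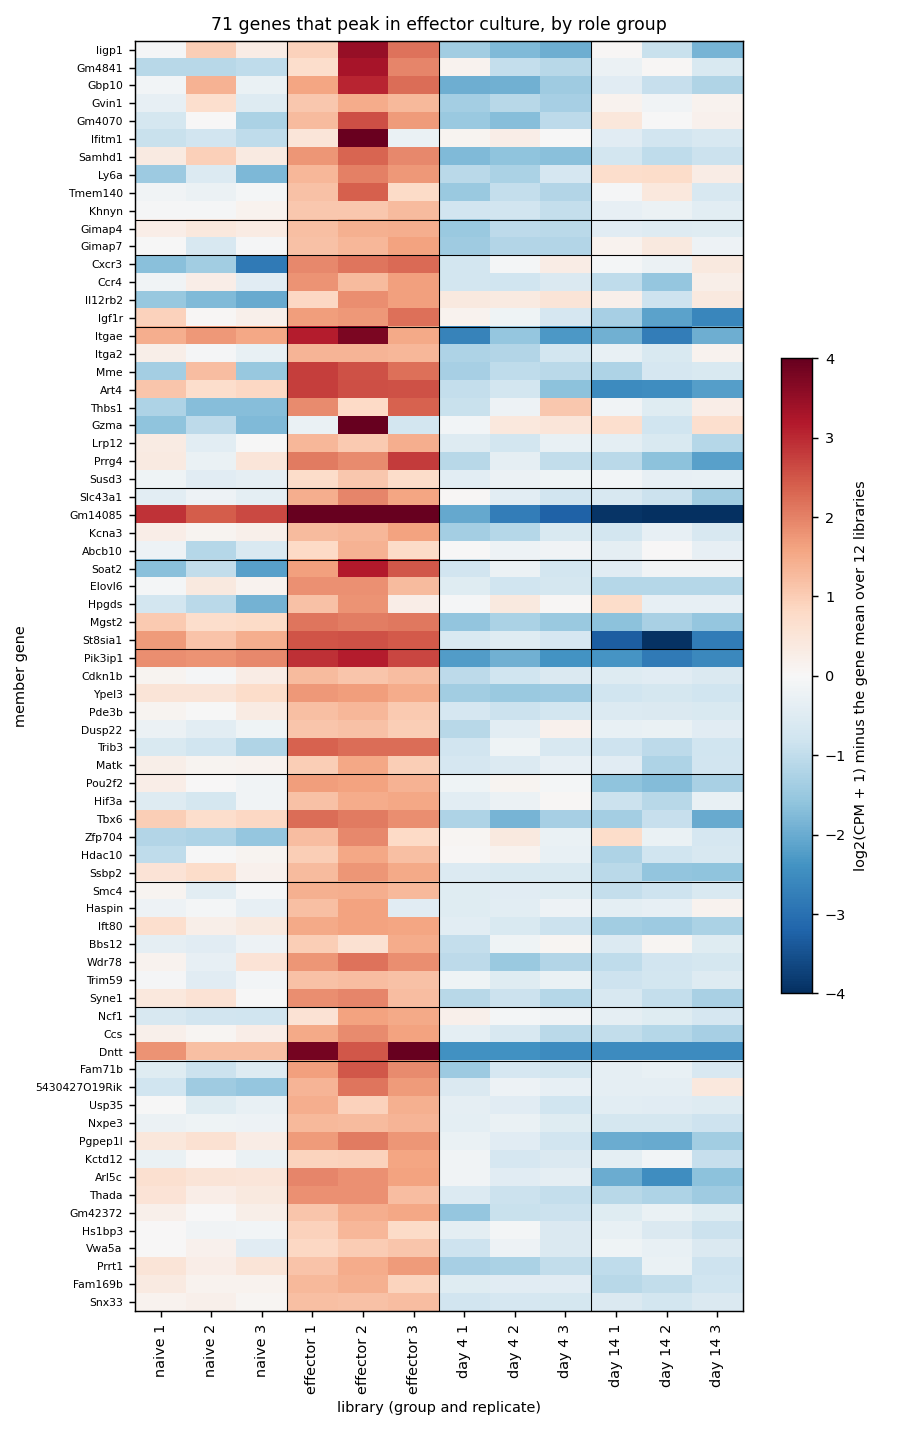
Each row is 1 of 71 members and each column a library; colour is log2(CPM + 1) minus the gene's mean over the 12 libraries, with values beyond 4 shown in the end colours, and lines separate role groups and sample groups. Effector means are highest by the rule, naive means come next for 47 of them, and Ifitm1 and Gzma are high in effector replicate 2 alone.

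The other 3 groups were compared with edgeR's quasi-likelihood test over 16426 genes in a fit of all 12 libraries; called means an adjusted p below 0.05. Day 4 and day 14 cells are both compared with the same naive libraries, and the tumour groups also share libraries between comparisons. Those libraries also entered the rule as the groups below effector. In day 4 versus naive cells 46 members were called, 8 higher and 38 lower (63.9%, where 62.2% of all genes were called, 33.4% higher and 28.8% lower). In day 14 versus naive cells 45 were called, 9 higher and 36 lower (62.5%, where 62.1% of all genes were called, 33.6% higher and 28.5% lower). The share called was thus close to that of all genes, while the direction was mostly downward. The median log2 fold change of the members was -0.74 at day 4 and -0.59 at day 14, against 0.03 and 0.04 over all genes tested. In day 14 versus day 4 cells 22 members were called (30.6%, where 12.1% of all genes were called), 12 higher (7.17% of all genes) and 10 lower (4.91%), with a median of 0.02 against -0.00 over all genes. All 72 members passed the filter on low counts, and 71, all but Trib3, would have passed on the 9 other libraries. With effector replicate 2 left out, the calls were 11 higher and 38 lower at day 4, 11 higher and 37 lower at day 14, and 12 higher and 12 lower between the tumour groups.

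Receptors for chemokines, cytokines and growth factors comprised 4 members, of which Cxcr3 and Il12rb2 rose in tumour cells over naive cells. Cxcr3, the receptor for interferon-induced chemokines, had 11.2, 13.7 and 4.42 CPM in the naive, 145, 167 and 182 CPM in the effector, 22.3, 35.4 and 46.1 CPM in the day 4 and 35.5, 31.4 and 49.8 CPM in the day 14 libraries. All effector libraries were above every other, and the naive libraries were below every tumour library. Its log2 fold change was 1.89 ± 0.40, edgeR adjusted p = 0.00266 at day 4 and 2.09 ± 0.40, edgeR adjusted p = 0.00151 at day 14 over naive (SE; n = 3 libraries a group here and below). Il12rb2, the signalling chain of the IL-12 receptor, had 7.82, 6.37 and 5.21 CPM in the naive, 44.00, 90.9 and 77.9 CPM in the effector, 32.05, 31.1 and 35.2 CPM in the day 4 and 28.1, 13.1 and 32.4 CPM in the day 14 libraries. The lowest effector library exceeded the highest tumour library, 35.2 CPM, and the tumour libraries did not overlap with naive ones. It rose by 2.40 ± 0.37, edgeR adjusted p = 0.000213 at day 4 and by 2.01 ± 0.37, edgeR adjusted p = 0.000736 at day 14. Its gene overlaps Serbp1 on the opposite strand. Serbp1 had means of 1256, 1060, 2274 and 1965 CPM in naive, effector, day 4 and day 14 cells. Like Il12rb2, Serbp1 was higher in both tumour groups than in naive cells, but unlike it was lower in effector than in tumour cells. The unstranded counts cannot tell their reads apart in the overlap, and the part of Serbp1 in these rises was not tested.

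The family around these receptors differed in its peak. Of 15 chemokine receptor genes with a group mean of at least 1 CPM, 13 reached 10 CPM, and 6 of those peaked at day 14, 4 at day 4, 2 in effector (Cxcr3 and Ccr4) and 1 in naive cells. Il18r1 and Il18rap, chains of the IL-18 receptor, both peaked at day 4. Ccr4, a receptor of skin-homing and type 2 helper cells, had 5.32, 7.29 and 4.11 CPM in the naive, 23.2, 15.7 and 20.7 CPM in the effector, 3.16, 2.99 and 3.68 CPM in the day 4 and 2.44, 1.37 and 7.196 CPM in the day 14 libraries. It was not called in any of the comparisons without effector cells, and its naive and day 14 libraries overlapped. Igf1r, the insulin-like growth factor 1 receptor, had 36.04, 19.3 and 21.5 CPM in the naive, 60.97, 63.8 and 88.8 CPM in the effector, 20.3, 16.1 and 11.2 CPM in the day 4 and 6.804, 3.39 and 2.22 CPM in the day 14 libraries. Every day 14 library was below every other library, and the gene fell, with a log2 fold change of -1.93 ± 0.40, edgeR adjusted p = 0.0094 from day 4 to day 14, and adjusted p of 0.000109 to 0.0481 over the alternatives.

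**Figure D2:**
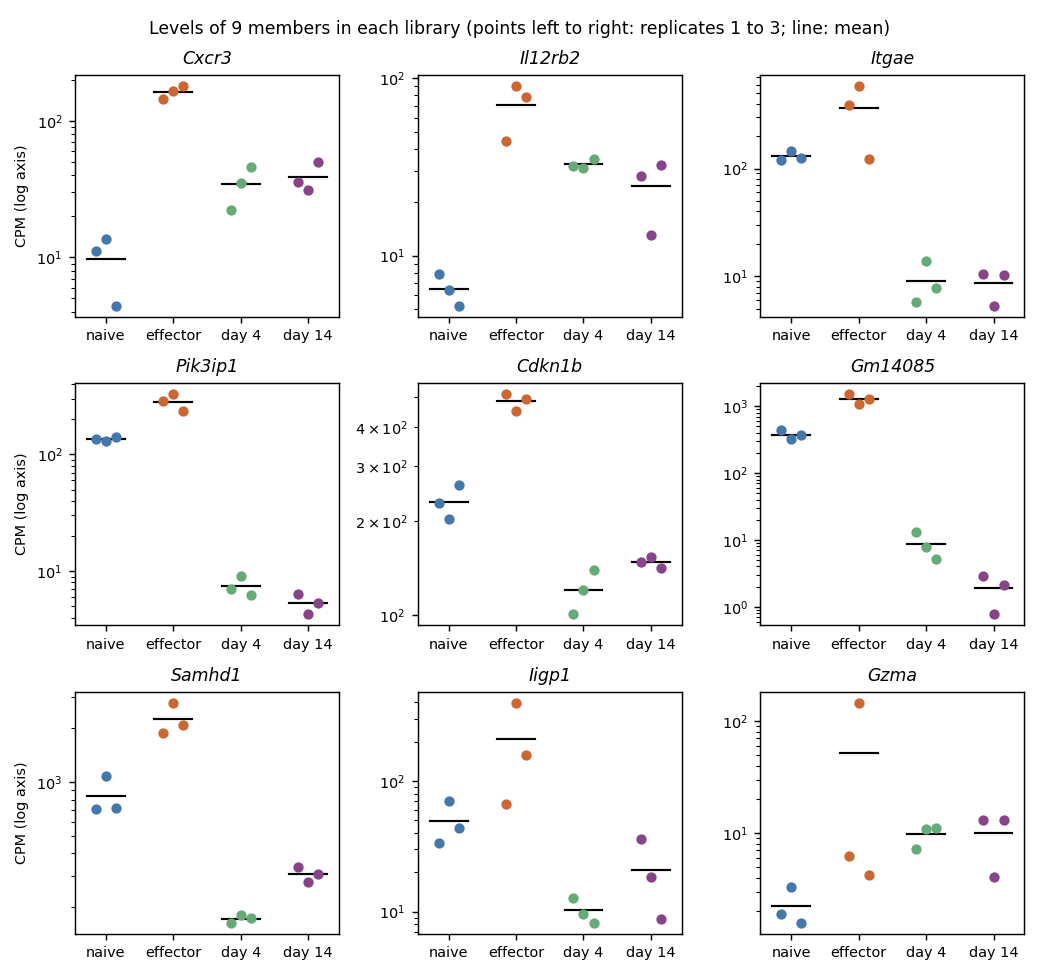
CPM on a log axis of 9 members in each of the 12 libraries, grouped as naive, effector, day 4 and day 14; points are replicates 1 to 3 from left to right and lines are means of 3. Effector libraries lie above the rest for Cxcr3, Il12rb2, Pik3ip1, Cdkn1b, Gm14085 and Samhd1, and for Gzma replicate 2 alone is high.

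A mixed group of brakes on growth, kinases, phosphatases and the phosphodiesterase Pde3b held 7 members. Of these, 5 fell and none rose in each tumour group compared with naive cells. Of all genes, 28.8% fell at day 4 and 28.5% at day 14. Pik3ip1, a transmembrane inhibitor of PI3 kinase, had 135, 130.4 and 142 CPM in the naive, 285, 329 and 238 CPM in the effector, 6.98, 9.03 and 6.24 CPM in the day 4 and 6.34, 4.28 and 5.32 CPM in the day 14 libraries. The 4 groups kept an order of effector, naive and then the tumour groups with no overlap between effector, naive and tumour libraries. Its log2 fold change was -4.14 ± 0.16, edgeR adjusted p = 5.82e-12 at day 4 and -4.60 ± 0.16, edgeR adjusted p = 2.95e-12 at day 14 versus naive. Cdkn1b, which encodes the cell cycle inhibitor p27, had 228, 203 and 262 CPM in the naive, 511, 452 and 492 CPM in the effector, 101, 121 and 139 CPM in the day 4 and 149, 154 and 142 CPM in the day 14 libraries. It was lower in both tumour groups than in naive cells (-0.88 ± 0.12, edgeR adjusted p = 6.73e-06 at day 4 and -0.57 ± 0.12, edgeR adjusted p = 0.000501 at day 14), again with no overlap. Without naive replicate 2 Cdkn1b did not meet the rule. Cdkn1a, the p21 gene of the same inhibitor family, was no member: it had a mean of 8.99 CPM in effector, 127 CPM in day 4 and 526 CPM in day 14 cells.

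Ypel3, a small protein reported to restrain proliferation, had 107, 107 and 125 CPM in the naive, 250.1, 239.6 and 212 CPM in the effector, 28.2, 25.8 and 26.5 CPM in the day 4 and 42.9, 45.1 and 42.7 CPM in the day 14 libraries. Its 4 groups did not overlap, in the order effector, naive, day 14 and day 4, and it was the only one of the 7 called between the tumour groups. Pde3b, a phosphodiesterase that breaks down cyclic nucleotides, had 389, 422 and 349 CPM in effector and 181, 164 and 209.8 CPM in naive libraries and was between 92.6 and 115 CPM in all tumour libraries; it did not meet the rule without naive replicate 2 or effector replicate 2. Matk, a kinase that inhibits Src-family kinases, lay just inside the threshold with a ratio of 2.04. It had 20.2, 18.5 and 18.8 CPM in the naive, 34.3, 51.3 and 34.8 CPM in the effector, 10.2, 11.2 and 13.5 CPM in the day 4 and 12.2, 6.59 and 9.65 CPM in the day 14 libraries. Its lower level at day 4 than in naive cells (-0.66 ± 0.22, edgeR adjusted p = 0.0133) lost its call without day 4 replicate 1 or 2, with adjusted p of 0.00232 to 0.0575 over the alternatives, while that at day 14 kept it (-0.94 ± 0.22, edgeR adjusted p = 0.00126).

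Trib3, a pseudokinase induced by the integrated stress response, had a ratio of 6.86. It had 0.625, 0.419 and 0.07899 CPM in the naive, 11.6, 10.51 and 10.7 CPM in the effector, 0.441, 1.18 and 0.591 CPM in the day 4 and 0.396, 0.178 and 0.409 CPM in the day 14 libraries. The effector libraries were close to each other (CV 5.32%) and the highest other library had 1.18 CPM. Trib3 passed the filter on low counts only through its effector libraries. No comparison among the other groups was called for Trib3, and nothing is read from that. Its relatives peaked elsewhere: Trib1 had a mean of 7.67 CPM in effector and 53.5 CPM in day 4 cells, and Trib2 had 123 CPM in naive and 48.3 CPM in effector cells. Dusp22, a phosphatase that inhibits Lck, had 12.1, 10.3 and 12.5 CPM in the naive, 32.1, 33.2 and 28.97 CPM in the effector, 6.101, 10.3 and 16.1 CPM in the day 4 and 11.4, 11.6 and 10.2 CPM in the day 14 libraries. Only the effector libraries of Dusp22 stood apart, and the other 3 groups overlapped with fold changes near 0 (0.04 or less in size on the log2 scale).

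Of 9 adhesion molecules, surface enzymes and secreted proteins, 4 fell and 1 rose in each tumour group versus naive cells, against 28.8% and 28.5% of all genes lower and 33.4% and 33.6% higher at day 4 and day 14. Itgae, the CD103 integrin chain that binds E-cadherin, had 119, 145 and 126 CPM in the naive, 385, 589 and 122 CPM in the effector, 5.81, 13.8 and 7.88 CPM in the day 4 and 10.50, 5.35 and 10.2 CPM in the day 14 libraries. Effector replicate 3 was inside the naive range, while the other effector libraries were far above the naive ones, and without effector replicate 2 Itgae did not meet the rule. It was -3.77 ± 0.60, edgeR adjusted p = 0.000633 at day 4 and -3.82 ± 0.60, edgeR adjusted p = 0.000582 at day 14 versus naive on the log2 scale. Itga2, the CD49b integrin chain, had 10.1, 8.04 and 6.56 CPM in the naive, 22.8, 23.1 and 22.3 CPM in the effector, 2.94, 3.18 and 4.66 CPM in the day 4 and 6.67, 5.17 and 9.24 CPM in the day 14 libraries. Its effector libraries were the closest of all members (CV 1.91%). It fell at day 4 (-1.13 ± 0.26, edgeR adjusted p = 0.00138), and its higher level at day 14 than at day 4 (0.99 ± 0.26, edgeR adjusted p = 0.0195) lost its call without day 4 replicate 1 or 2, without day 14 replicate 3 or with only these groups fitted, with adjusted p of 0.0026 to 0.113 over the alternatives. Among 13 alpha integrin chains 8 reached 10 CPM, and 5 of them peaked at day 14.

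Art4, an ADP-ribosyltransferase of the cell surface, had 14.7, 10.9 and 11.8 CPM in the naive, 48.1, 41.9 and 40.95 CPM in the effector, 2.72, 3.36 and 1.31 CPM in the day 4 and 0.264, 0.297 and 0.585 CPM in the day 14 libraries. The 4 groups did not overlap. Art4 fell in steps, with a log2 fold change of -2.28 ± 0.26, edgeR adjusted p = 1.30e-06 from naive to day 4 and -2.62 ± 0.37, edgeR adjusted p = 0.000197 from day 4 to day 14, with -4.90 ± 0.33, edgeR adjusted p = 3.04e-09 between naive and day 14 cells. Mme, the surface peptidase neprilysin, had 0.625, 8.88 and 0.474 CPM in the naive, 27.7, 23.6 and 18.3 CPM in the effector, 0.662, 1.06 and 0.985 CPM in the day 4 and 0.793, 1.604 and 1.75 CPM in the day 14 libraries. Outside effector cells naive replicate 2 was the highest library, all others had at most 1.75 CPM, and no comparison was called. Prrg4, a transmembrane protein with a Gla domain, had 6.49, 3.85 and 7.19 CPM in the naive, 23.9, 20.6 and 39.7 CPM in the effector, 1.69, 3.61 and 1.97 CPM in the day 4 and 1.78, 0.891 and 0.292 CPM in the day 14 libraries. It fell at day 14 versus naive (-2.51 ± 0.49, edgeR adjusted p = 0.000548), and its call at day 4 (-1.21 ± 0.45, edgeR adjusted p = 0.0295) was lost under 5 alternatives with adjusted p of 0.000106 to 0.107.

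Thbs1, the secreted glycoprotein thrombospondin-1, had 0.391, 0 and 0 CPM in the naive, 11.1, 4.597 and 15.6 CPM in the effector, 0.735, 1.81 and 5.84 CPM in the day 4 and 1.92, 1.31 and 2.92 CPM in the day 14 libraries. Naive replicates 2 and 3 held no read, all tumour libraries were above naive replicate 1, and effector replicate 2 lay within the day 4 range. Gzma, which encodes granzyme A, had 1.88, 3.27 and 1.58 CPM in the naive, 6.28, 146 and 4.21 CPM in the effector, 7.204, 10.8 and 11.2 CPM in the day 4 and 12.9, 4.04 and 13.05 CPM in the day 14 libraries. Effector replicate 2 alone was high, and effector replicates 1 and 3 were below the day 4 and day 14 means of 9.71 and 10.01 CPM. The gene did not meet the rule without that library. Gzmb peaked at day 14, and so did Gzmk, with means of 2.79 CPM in effector and 237 CPM in day 14 cells.

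Lrp12 and Susd3 completed this group. Lrp12, a receptor of the LDL receptor family, had 5.47, 2.85 and 4.11 CPM in the naive, 11.8, 9.52 and 12.9 CPM in the effector, 2.57, 2.06 and 3.15 CPM in the day 4 and 2.91, 2.38 and 1.35 CPM in the day 14 libraries. All effector libraries were above the others, whose groups overlapped. Susd3 had 12.6, 16.1 and 12.6 CPM in effector and 4.86 to 6.47 CPM in all other libraries.

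Transporters and channels numbered 4. Gm14085, annotated at chr2:122484941-122528040 (GRCm38, plus strand) and a paralogue of the nucleoside transporter Slc28a2, had 441, 319 and 368 CPM in the naive, 1522, 1091 and 1301 CPM in the effector, 13.2, 7.72 and 5.25 CPM in the day 4 and 2.91, 0.772 and 2.11 CPM in the day 14 libraries. The 4 groups did not overlap, and the mean was 1305 ± 215 CPM in effector and 376 ± 61.6 CPM in naive and 1.93 ± 1.08 CPM in day 14 cells (SD, n = 3). The log2 fold change was -5.38 ± 0.39, edgeR adjusted p = 2.32e-06 at day 4 and -7.54 ± 0.46, edgeR adjusted p = 6.49e-07 at day 14 versus naive, and -2.16 ± 0.46, edgeR adjusted p = 0.0167 between day 14 and day 4. Slc28a2 itself peaked in effector cells at a ratio of 1.43 (397, 355 and 375 CPM) and was not a member. Its day 4 and day 14 means were 97.2 and 125 CPM. Multi-mapping reads stand in a line of their own outside the gene counts, so the counts of these paralogues are uncertain.

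Kcna3, the Kv1.3 potassium channel of T cells, had 29.00, 26.1 and 27.96 CPM in the naive, 58.9, 61.9 and 74.9 CPM in the effector, 8.82, 10.3 and 15.3 CPM in the day 4 and 14.1, 18.8 and 14.9 CPM in the day 14 libraries. Its tumour libraries lay below all naive libraries, which lay below all effector libraries. Slc43a1, an exchanger of large neutral amino acids, had 4.299, 5.11 and 4.34 CPM in the naive, 18.2, 26.4 and 20.2 CPM in the effector, 6.25, 4.24 and 3.15 CPM in the day 4 and 3.501, 2.91 and 1.696 CPM in the day 14 libraries. Only effector libraries stood apart, and no comparison among the others was called. In a list of 21 genes of amino acid transport and one-carbon enzymes, Slc43a1 was the only member, and 14 of the 19 genes that reached 10 CPM peaked at day 4. Abcb10, a mitochondrial transporter, had 12.97, 20.4 and 12.7 CPM in effector and 2.68 to 7.25 CPM in the other libraries.

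Enzymes of lipid metabolism held 5 members, with 2 higher and 3 lower in each tumour group than in naive cells (33.4% and 33.6% of all genes were higher, and 28.8% and 28.5% lower). Soat2, which esterifies cholesterol, had a ratio of 6.99, which was 5.14 without effector replicate 2. It had 0.391, 1.26 and 0 CPM in the naive, 12.9, 39.5 and 24.1 CPM in the effector, 1.62, 2.803 and 1.71 CPM in the day 4 and 2.25, 3.03 and 3.100 CPM in the day 14 libraries. Every effector library exceeded every other library by at least 4-fold. It rose at day 14 over naive (2.44 ± 0.69, edgeR adjusted p = 0.00847), and its call at day 4 (1.97 ± 0.71, edgeR adjusted p = 0.0298) was lost under 4 alternatives with adjusted p of 2.55e-05 to 0.103. Without naive replicate 2 the log2 fold change of Soat2 became 3.39 at day 4 and 3.86 at day 14. Soat1, the widely expressed enzyme of the same reaction, had means of 68.0, 76.2, 79.7 and 84.4 CPM in naive, effector, day 4 and day 14 cells.

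St8sia1, the synthase of ganglioside GD3, had 163, 112 and 139.6 CPM in the naive, 288, 297 and 278 CPM in the effector, 32.05, 35.3 and 31.3 CPM in the day 4 and 4.16, 2.32 and 6.32 CPM in the day 14 libraries. The 4 groups did not overlap, although St8sia1 did not meet the rule without naive replicate 2. It fell, with a log2 fold change of -2.02 ± 0.23, edgeR adjusted p = 1.33e-05 at day 4 and -4.93 ± 0.27, edgeR adjusted p = 3.11e-08 at day 14 versus naive, and -2.91 ± 0.26, edgeR adjusted p = 4.66e-05 from day 4 to day 14. Mgst2, a microsomal glutathione transferase, had 150.2, 119 and 125 CPM in the naive, 324, 306 and 318 CPM in the effector, 23.6, 29.4 and 25.4 CPM in the day 4 and 22.5, 29.3 and 24.2 CPM in the day 14 libraries. It was low in both tumour groups (-2.27 ± 0.11, edgeR adjusted p = 8.83e-11 at day 4 and -2.30 ± 0.11, edgeR adjusted p = 8.07e-11 at day 14 versus naive), with a difference of -0.02 ± 0.11 between them (edgeR adjusted p = 0.943). Elovl6, an elongase of long-chain fatty acids, had 55.7, 77.2 and 63.7 CPM in the naive, 208, 211 and 142 CPM in the effector, 41.6, 32.9 and 35.3 CPM in the day 4 and 26.1, 25.96 and 25.7 CPM in the day 14 libraries. It was below naive at day 4 (-0.78 ± 0.15, edgeR adjusted p = 0.000317) and day 14 (-1.26 ± 0.15, edgeR adjusted p = 3.38e-06), and it was the only member among 26 listed genes of cholesterol and fatty acid synthesis, of which 17 rose and 3 fell at day 4 (33.4% and 28.8% of all genes).

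Hpgds, a prostaglandin D synthase, had 5.94, 4.36 and 2.05 CPM in the naive, 24.9, 38.7 and 12.6 CPM in the effector, 9.997, 14.1 and 10.8 CPM in the day 4 and 18.03, 8.08 and 8.19 CPM in the day 14 libraries. Effector replicate 3 was below 1 day 4 and 1 day 14 library. The rule was not met without effector replicate 2, day 4 replicate 1, day 14 replicate 2 or day 14 replicate 3. Hpgds rose at day 4 over naive (1.56 ± 0.48, edgeR adjusted p = 0.0153), and its rise at day 14 (1.55 ± 0.48, edgeR adjusted p = 0.0157) was lost without day 14 replicate 1, with adjusted p of 0.000279 to 0.058.

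Transcription factors and chromatin regulators comprised 7 members. Pou2f2, the octamer factor Oct-2, had 29.8, 24.9 and 22.5 CPM in the naive, 81.4, 78.3 and 67.1 CPM in the effector, 21.8, 26.8 and 23.6 CPM in the day 4 and 7.399, 6.71 and 9.54 CPM in the day 14 libraries. Day 4 and naive libraries overlapped, and every day 14 library was below 10 CPM. Pou2f2 fell, with a log2 fold change of -1.58 ± 0.16, edgeR adjusted p = 9.31e-06 from day 4 to day 14 and -1.62 ± 0.16, edgeR adjusted p = 2.30e-07 from naive to day 14. Tbx6, a T-box factor known from mesoderm development, had 16.2, 13.1 and 14.5 CPM in the naive, 39.6, 35.5 and 30.7 CPM in the effector, 2.72, 1.37 and 2.49 CPM in the day 4 and 2.38, 3.62 and 1.17 CPM in the day 14 libraries. It was -2.68 ± 0.31, edgeR adjusted p = 1.73e-06 at day 4 and -2.54 ± 0.30, edgeR adjusted p = 2.63e-06 at day 14 versus naive, with tumour libraries all below 4 CPM. Ssbp2, a single-stranded DNA binding cofactor, had 57.6, 64.8 and 44.4 CPM in the naive, 95.1, 136 and 112 CPM in the effector, 26.5, 25.04 and 25.1 CPM in the day 4 and 17.8, 12.4 and 12.2 CPM in the day 14 libraries. It fell, with a log2 fold change of -1.06 ± 0.17, edgeR adjusted p = 4.15e-05 from naive to day 4 and -0.84 ± 0.17, edgeR adjusted p = 0.00383 from day 4 to day 14.

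Zfp704, a zinc finger gene, had 1.33, 1.26 and 0.7899 CPM in the naive, 11.2, 18.9 and 8.13 CPM in the effector, 4.56, 5.92 and 3.41 CPM in the day 4 and 7.795, 3.33 and 2.28 CPM in the day 14 libraries. Tumour libraries were above naive and below effector libraries. A lincRNA on the opposite strand, C030034L19Rik, overlaps it and had means of 73.5 CPM in effector and at most 0.544 CPM in each other group, and the unstranded counts cannot tell their reads apart in the overlap. Hif3a, a member of the hypoxia-inducible factor family, had 10.9, 13.8 and 14.7 CPM in effector and 1.48 to 4.53 CPM in the other libraries, with no call. Hdac10, a deacetylase of polyamines, had 16.1, 24.5 and 18.9 CPM in effector libraries and 2.71 to 8.47 CPM elsewhere, also with no call.

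Genes of chromosome structure, cilia and the nuclear envelope held 7 members. Smc4, an ATPase subunit of condensin, had 1408, 982 and 1271 CPM in the naive, 3494, 3562 and 3209.8 CPM in the effector, 934, 958 and 927 CPM in the day 4 and 673, 742 and 851 CPM in the day 14 libraries. The groups did not overlap, in the order effector, naive, day 4 and day 14, though day 14 versus day 4 was not called (edgeR adjusted p = 0.125). Smc4 was lower at day 14 than in naive cells (-0.61 ± 0.12, edgeR adjusted p = 0.00027), and its smaller difference at day 4 (-0.32 ± 0.12, edgeR adjusted p = 0.0246) lost its call under 5 alternatives (adjusted p 0.00125 to 0.169) and was -0.20 without naive replicate 1. Its partner Smc2 had means of 62.9, 72.2, 397 and 401 CPM in naive, effector, day 4 and day 14 cells, and none of the 24 mitosis and 25 DNA replication genes listed was a member. Of these lists, 24 of 24 and 23 of 24 tested genes rose at day 4 over naive, where 33.4% of all genes did, and of the 24 genes of each that reached 10 CPM 0 peaked in effector cells.

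Smc4 lies between 2 other members on chromosome 3. Ift80, an intraflagellar transport gene on the opposite strand, lies head to head with Smc4, with 167 bases between their starts (chr3:68892499-69004570, minus, and chr3:69004738-69034623, plus, GRCm38). Trim59, a RING-type ubiquitin ligase, lies 664 bases beyond the end of Smc4 (chr3:69035288-69044755, minus). Ift80 had 246, 183 and 202 CPM in the naive, 448, 476 and 469 CPM in the effector, 117, 101 and 84.2 CPM in the day 4 and 58.00, 55.6 and 64.3 CPM in the day 14 libraries. Its groups did not overlap. Ift80 fell, with a log2 fold change of -1.01 ± 0.12, edgeR adjusted p = 2.03e-06 at day 4, -1.75 ± 0.12, edgeR adjusted p = 4.49e-09 at day 14 versus naive and -0.74 ± 0.12, edgeR adjusted p = 0.000639 between the tumour times. Trim59 had 22.98, 16.8 and 21.96 CPM in the naive, 54.00, 57.1 and 53.9 CPM in the effector, 20.8, 16.6 and 19.2 CPM in the day 4 and 12.9, 13.8 and 16.1 CPM in the day 14 libraries. Its naive and day 4 libraries overlapped, and every day 14 library was below both, though day 14 versus day 4 was not called.

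Syne1, a nesprin that links the nucleus to the cytoskeleton, had 238, 265 and 178 CPM in the naive, 644, 697 and 422 CPM in the effector, 81.3, 97.3 and 80.2 CPM in the day 4 and 114, 91.8 and 71.7 CPM in the day 14 libraries. It was below naive at day 4 (-1.34 ± 0.21, edgeR adjusted p = 0.000171) and day 14 (-1.22 ± 0.21, edgeR adjusted p = 0.000341). Wdr78, a dynein intermediate chain gene, had 13.99, 9.72 and 18.6 CPM in the naive, 45.03, 60.1 and 47.6 CPM in the effector, 5.51, 3.799 and 4.99 CPM in the day 4 and 5.68, 6.95 and 7.25 CPM in the day 14 libraries. Its 4 groups did not overlap, in the order effector, naive, day 14 and day 4, though day 14 versus day 4 was not called. The gene overlaps Mier1 on the opposite strand. Mier1 had means of 174, 211, 115 and 149 CPM in naive, effector, day 4 and day 14 cells, the same order. Without strand the reads of Wdr78 and Mier1 cannot be told apart in the overlap. Haspin, a histone H3 kinase of mitosis, lies within Itgae on the opposite strand (chr11:73135485-73138294, minus, in chr11:73090583-73147446, plus; GRCm38) and had 19.2, 21.4 and 17.9 CPM in the naive, 52.8, 70.8 and 16.05 CPM in the effector, 15.7, 16.5 and 19.2 CPM in the day 4 and 16.98, 17.5 and 24.7 CPM in the day 14 libraries. Effector replicate 3 was low for both genes, and without strand their shared reads cannot be told apart. Bbs12, a chaperonin-like gene of cilia, had 16.5, 12.6 and 23.5 CPM in effector and 3.53 to 8.40 CPM elsewhere.

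Dntt encodes terminal deoxynucleotidyl transferase, which adds nucleotides at receptor gene joints in developing lymphocytes. Its level was 18.8, 12.1 and 12.2 CPM in naive and 80.97, 31.4 and 122 CPM in effector libraries, while day 4 libraries held 2 reads in all and day 14 libraries none. Effector and naive libraries did not overlap, although effector replicate 2 was the lowest of its group. Against a floor of 3 reads over the group, Dntt was at least 236-fold higher in naive than in day 14 cells. The ratio of naive to day 4 was 324 (95% interval from counts 89.1 to 2679). Dntt was called lower in both tumour groups than in naive cells (edgeR adjusted p = 0.000183 at day 4 and 0.000141 at day 14).

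Ncf1, the p47phox organiser of the phagocyte NADPH oxidase, had 73.3, 67.3 and 65.7 CPM in the naive, 169, 354 and 329.6 CPM in the effector, 133, 109 and 103 CPM in the day 4 and 88.98, 80.5 and 70.9 CPM in the day 14 libraries. It rose at day 4 over naive (0.80 ± 0.23, edgeR adjusted p = 0.0115), and its lower mean at day 14 than at day 4 was not called (-0.50 ± 0.23, edgeR adjusted p = 0.214). Ccs, the copper chaperone of superoxide dismutase, had 29.5, 26.6 and 30.6 CPM in the naive, 74.97, 96.2 and 78.6 CPM in the effector, 19.3, 15.9 and 11.6 CPM in the day 4 and 12.3, 10.9 and 9.42 CPM in the day 14 libraries. Tumour libraries were below all naive libraries, and naive below all effector libraries.

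Interferon-inducible and antiviral genes were the largest named role group, with 10 members. At day 4 versus naive 6 fell and none rose, where 28.8% of all genes fell. At day 14 versus day 4 6 rose and none fell, where 7.17% of all genes rose. At day 14 versus naive 2 rose and 2 fell (33.6% and 28.5% of all genes). Samhd1, which hydrolyses deoxynucleotides and restricts viruses, had 711, 1082 and 716 CPM in the naive, 1888, 2784 and 2094 CPM in the effector, 164, 181 and 174 CPM in the day 4 and 338, 276 and 305 CPM in the day 14 libraries. The 4 groups did not overlap, in the order effector, naive, day 14 and day 4. Samhd1 fell, with a log2 fold change of -2.22 ± 0.18, edgeR adjusted p = 3.44e-07 at day 4 and -1.37 ± 0.17, edgeR adjusted p = 2.12e-05 at day 14 versus naive, and it was 0.85 ± 0.17, edgeR adjusted p = 0.00642 higher at day 14 than at day 4.

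Ly6a, the surface protein Sca-1 that interferons induce, had 42.5, 81.6 and 33.4 CPM in the naive, 302, 481 and 401 CPM in the effector, 55.7, 49.2 and 75.2 CPM in the day 4 and 194, 199.6 and 146 CPM in the day 14 libraries. Day 4 and naive libraries overlapped, while day 14 lay above both. It rose at day 14 over naive (1.85 ± 0.34, edgeR adjusted p = 0.00121), and its rise over day 4 (1.59 ± 0.34, edgeR adjusted p = 0.0157) lost its call without day 4 replicate 1 or 2 or day 14 replicate 1 or 2, with adjusted p of 0.000187 to 0.0711. Khnyn, a cofactor of the zinc finger antiviral protein, had 87.5, 87.4 and 99.6 CPM in the naive, 194, 193 and 219 CPM in the effector, 52.4, 52.7 and 46.3 CPM in the day 4 and 72.4, 77.4 and 67.04 CPM in the day 14 libraries. Its 4 groups did not overlap, in the order effector, naive, day 14 and day 4.

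Tmem140, a small transmembrane protein, had 5.86, 5.45 and 6.08 CPM in the naive, 15.9, 38.7 and 11.9 CPM in the effector, 1.69, 2.86 and 2.36 CPM in the day 4 and 6.28, 9.03 and 3.86 CPM in the day 14 libraries. Effector replicate 2 held more than the other effector libraries together. Tmem140 was lower at day 4 than in naive cells (-1.27 ± 0.43, edgeR adjusted p = 0.0189; lost under 3 alternatives, adjusted p 5.43e-05 to 0.0817) and higher at day 14 than at day 4 (1.48 ± 0.42, edgeR adjusted p = 0.0349; lost under 8, adjusted p 5.04e-06 to 0.149). Ifitm1, an interferon-induced membrane protein that blocks viral entry, had 0.0782, 0.168 and 0 CPM in the naive, 1.79, 30.04 and 0.653 CPM in the effector, 1.18, 1.43 and 0.985 CPM in the day 4 and 0.462, 0.178 and 0.292 CPM in the day 14 libraries. Naive libraries held 3 reads in all. Ifitm1 was high in effector replicate 2 alone, did not meet the rule without it and was not called in any comparison.

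GTPases that interferons induce made up 5 of these members. Iigp1, an immunity-related GTPase that attacks the vacuoles of intracellular parasites, had 33.8, 70.6 and 43.4 CPM in the naive, 67.2, 399 and 159 CPM in the effector, 12.7, 9.65 and 8.21 CPM in the day 4 and 35.7, 18.2 and 8.83 CPM in the day 14 libraries. Effector replicate 1 was below naive replicate 2, and replicate 2 was the highest of its group in both naive and effector cells. Its fall at day 4 versus naive (-2.22 ± 0.75, edgeR adjusted p = 0.0295) lost its call under 6 alternatives, among them without naive replicate 2, with adjusted p of 5.60e-05 to 0.089. Gbp10, a guanylate-binding protein, had 20.7, 61.5 and 18.6 CPM in the naive, 69.03, 195 and 111 CPM in the effector, 5.15, 5.23 and 7.88 CPM in the day 4 and 16.1, 11.4 and 9.302 CPM in the day 14 libraries. Its 4 groups did not overlap, in the same order of effector, naive, day 14 and day 4. Neither day 14 versus naive nor day 14 versus day 4 was called for Gbp10.

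Gvin1, a very large interferon-inducible GTPase, had 36.1, 72.7 and 31.99 CPM in the naive, 97.4, 129.7 and 114 CPM in the effector, 17.3, 20.6 and 17.7 CPM in the day 4 and 50.4, 40.9 and 50.02 CPM in the day 14 libraries. Day 4 was lowest without overlap, and day 14 and naive libraries overlapped. It fell at day 4 versus naive (-1.28 ± 0.27, edgeR adjusted p = 0.00152, or -0.81 without naive replicate 2) and was higher at day 14 than at day 4 (1.37 ± 0.27, edgeR adjusted p = 0.00649). Gm4070, of the same family and 202588 bases away on chromosome 7, had 15.01, 25.5 and 9.87 CPM in the naive, 61.1, 154 and 83.1 CPM in the effector, 8.38, 7.04 and 11.6 CPM in the day 4 and 34.7, 24.5 and 28.5 CPM in the day 14 libraries. Its rise from day 4 to day 14 (1.72 ± 0.43, edgeR adjusted p = 0.0308) lost its call under 7 alternatives, with adjusted p of 0.000226 to 0.118. Gm4841, an immunity-related GTPase with 1 read in all naive libraries, had 2.55, 20.2 and 7.41 CPM in effector and at most 1.40 CPM in the other libraries. The ratio of day 14 to naive cells was 31.2 (95% interval from counts 5.30 to 1264). Its call at day 14 versus naive (4.63 ± 1.82, edgeR adjusted p = 0.0445) was lost under 8 alternatives, with adjusted p of 0.00879 to 0.13.

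The families of these GTPases were collected after the members were known and describe their relatives. Of 8 GIMAP genes 6 had their highest mean in effector cells, of 9 guanylate-binding proteins 7, and of 10 immunity-related GTPases that reached 10 CPM 9, where 27.2% of protein-coding genes with an effector mean of at least 10 CPM did. Some were near ties, with ratios of 1.02 for Gbp9, 1.05 for Gbp4 and 1.06 for Tgtp2. The counts of peaks include the members, whose peak the rule fixed, so nothing is read from their excess over 27.2%. Of these families 2, 1 and 2 genes met the rule, and 2, 4 and 5 did without naive replicate 2, when Gbp2, Gbp6, Gbp8, Irgm1, Igtp and Irgm2 were added. Only 1 GIMAP gene met it without naive replicate 1 or without effector replicate 3, when Gimap4 was lost. Only 1 immunity-related GTPase met it without effector replicate 2, when Gm4841 was lost. Igtp, an immunity-related GTPase at a ratio of 1.995, and Gbp6, a guanylate-binding protein at 1.98, lay just outside it. At day 4 versus naive 8 of 8 GIMAP genes, 7 of 9 guanylate-binding proteins and 9 of 11 tested immunity-related GTPases fell, where 28.8% of all genes did. From day 4 to day 14, 6, 5 and 2 of them rose and none fell, where 7.17% of all genes rose and 4.91% fell. These counts include the members. Among the relatives that were not members, 6 of 6, 6 of 8 and 8 of 9 tested genes fell at day 4 versus naive. Of those relatives 4, 5 and 2 rose from day 4 to day 14 and none fell.

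Both GIMAP members fell at day 4 and rose again by day 14. Gimap4 had 1346, 1507 and 1411 CPM in the naive, 2623, 3009 and 3092 CPM in the effector, 400.0, 547 and 534 CPM in the day 4 and 818, 794 and 813 CPM in the day 14 libraries. Its groups did not overlap, in the order effector, naive, day 14 and day 4. It fell, with a log2 fold change of -1.47 ± 0.11, edgeR adjusted p = 7.02e-09 at day 4 and -0.74 ± 0.11, edgeR adjusted p = 1.66e-05 at day 14 versus naive, and rose by 0.73 ± 0.11, edgeR adjusted p = 0.000229 between the tumour times. Gimap7, 26560 bases from it on chromosome 6, had 70.9, 45.1 and 68.7 CPM in the naive, 159.7, 180.1 and 217 CPM in the effector, 25.9, 31.3 and 31.3 CPM in the day 4 and 78.7, 93.6 and 62.01 CPM in the day 14 libraries. Day 14 and naive libraries overlapped, and the rise from day 4 to day 14 (1.42 ± 0.19, edgeR adjusted p = 0.000256) stood beside a fall from naive to day 4 (-1.01 ± 0.19, edgeR adjusted p = 0.000391).

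**Figure D3:**
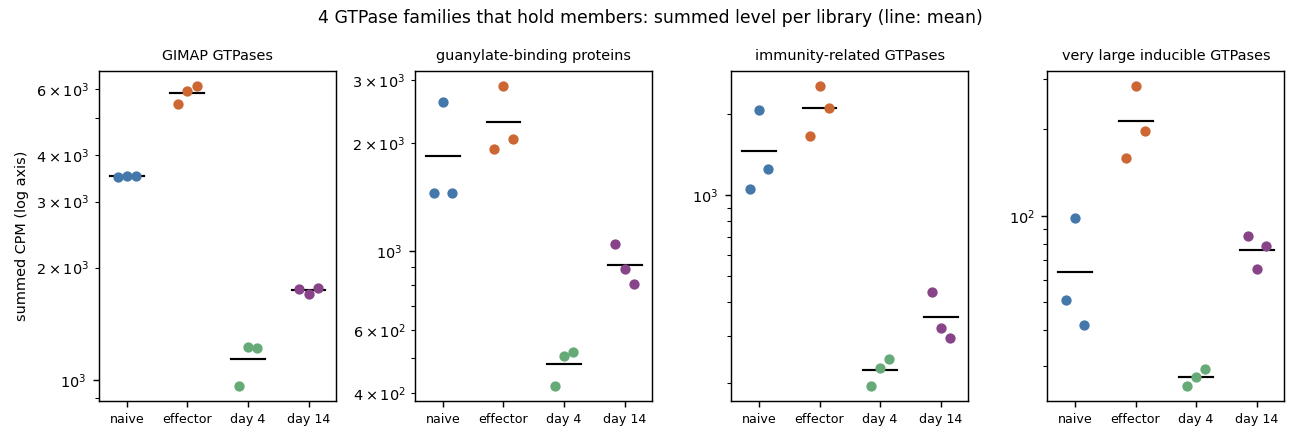
Summed CPM on a log axis of 8 GIMAP genes, 9 guanylate-binding proteins, 12 immunity-related GTPases and 2 very large inducible GTPases in each library, with the mean of each group as a line. In each family day 4 libraries are lowest, and replicate 2 is the highest naive library for every family but the GIMAP genes, where naive replicates lie within 3488 and 3517 CPM.

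The interferon genes of the rule were not the whole interferon response. Of 24 listed type I interferon response genes none was a member, and 20 of the 23 that reached 10 CPM peaked in naive cells against 2 in effector cells. At day 4 versus naive 20 of the 24 fell (28.8% of all genes). At day 14 versus naive 17 fell and 1 rose (28.5% and 33.6% of all genes), and from day 4 to day 14 9 rose and none fell (7.17% and 4.91%).

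RefSeq promoter sequences of GRCm38.p6 were matched to 52 of the 72 members and searched on both strands, in the 250 bases before the start, for an interferon-stimulated response element (ISRE, the letters GAAA, any 2 bases and GAAA) and an interferon-gamma activated site (GAS, TTCNNNGAA). No promoter was matched for Ly6a, Iigp1, Gbp10, Gvin1, Gm4070 and Gm4841, so these interferon-inducible members were not searched. Matches of both motifs can share letters, as they do in Ncf1. The ISRE letters were in 3 of 52 members (5.77%; Gzma, Tmem140 and Ncf1) and in 3.04% of 17492 promoters of the same length. The GAS letters were in 4 (7.69%; Mme, Samhd1, Ncf1 and Il12rb2) and in 6.65% of all. The stretches below show where these letters lie in members that the text describes, with the match in capitals. The match ends 54 bases before the start in Tmem140, 88 in Gzma, 73 in Ncf1, 227 in Samhd1 and 115 in Il12rb2.
Tmem140 ISRE, chr6:34863058-34863117, plus strand: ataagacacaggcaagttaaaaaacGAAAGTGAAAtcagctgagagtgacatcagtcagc
Gzma ISRE, chr13:113101044-113101103, minus strand: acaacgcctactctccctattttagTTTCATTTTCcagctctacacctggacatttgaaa
Ncf1 ISRE, chr5:134229673-134229732, minus strand: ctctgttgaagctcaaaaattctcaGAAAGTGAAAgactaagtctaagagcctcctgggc
Samhd1 GAS, chr2:157135287-157135346, minus strand: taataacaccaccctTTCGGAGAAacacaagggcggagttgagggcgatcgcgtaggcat
Il12rb2 GAS, chr6:67376277-67376336, minus strand: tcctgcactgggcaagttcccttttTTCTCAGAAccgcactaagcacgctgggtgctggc

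Tmem140 and Ncf1 carry the same 10 letters on the sense strand and Gzma carries a match on the antisense strand. Tmem140 and Gzma were highest in effector replicate 2 by far, whereas Ncf1 was about as high in replicate 3. Of the other motifs, a forkhead FOXO site (GTAAACA) was in 2 members (3.85%, 2.57% of all promoters), AP-1 (TGANTCA) in 2 (3.85%, 6.18%), SREBP (TCACNCCAC) in 1 (1.92%, 0.983%), ETS (CCGGAAG) in 2 (3.85%, 9.15%) and a T-box site (AGGTGTGA) in 1 (1.92%, 1.03%). The ATF4-type composite CARE (TGATGNAA) and NF-kB (GGGA, any 2 bases and TTCC) were in none, against 3.26% and 1.17% of all. These shares rest on few promoters, and a match is a description of letters only. The members' median GC content over the 250 bases was 59.4%, against 55.2% over all.

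Among the 14 members without a role group, 8 fell and 1 rose in each tumour group versus naive cells, beside shares over all genes of 28.8% and 28.5% lower and 33.4% and 33.6% higher. Thada had 289.5, 239 and 258 CPM in the naive, 696, 707 and 465 CPM in the effector, 135, 109 and 102 CPM in the day 4 and 90.5, 82.5 and 73.3 CPM in the day 14 libraries. It was below naive at day 4 (-1.13 ± 0.15, edgeR adjusted p = 1.07e-05) and day 14 (-1.60 ± 0.15, edgeR adjusted p = 3.64e-07). Arl5c, a small GTPase of the ARF family, had 54.4, 49.7 and 48.6 CPM in the naive, 138, 127 and 108 CPM in the effector, 31.5, 25.04 and 26.98 CPM in the day 4 and 7.93, 5.41 and 10.3 CPM in the day 14 libraries. The 4 groups did not overlap, and Arl5c fell, with a log2 fold change of -1.79 ± 0.19, edgeR adjusted p = 2.05e-05 from day 4 to day 14. Fam71b had a ratio of 5.57, with 70.4, 128 and 85.5 CPM in effector and 7.498 to 17.8 CPM in the other libraries, and no comparison was called.

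Only 5430427O19Rik of these rose over naive cells. It had 3.05, 1.68 and 1.42 CPM in the naive, 17.2, 29.96 and 22.3 CPM in the effector, 3.75, 5.17 and 4.595 CPM in the day 4 and 4.56, 4.51 and 8.42 CPM in the day 14 libraries. The log2 fold change was 1.19 ± 0.35, edgeR adjusted p = 0.00697 at day 4 and 1.59 ± 0.34, edgeR adjusted p = 0.000735 at day 14. Snx33, a sorting nexin, had 13.4, 13.9 and 12.7 CPM in the naive, 28.7, 27.99 and 29.6 CPM in the effector, 6.69, 7.16 and 6.96 CPM in the day 4 and 7.73, 6.83 and 7.78 CPM in the day 14 libraries. Its tumour libraries were below all naive ones (-0.89 ± 0.15, edgeR adjusted p = 0.000104 and -0.76 ± 0.15, edgeR adjusted p = 0.000389). Vwa5a had 84.2, 97.2 and 103 CPM in effector and 26.4 to 53.3 CPM in the other libraries, whose groups overlapped.

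On chromosome 7, 3 neighbouring members were all called lower at day 14 than at day 4. That call was made for 4.91% of all genes and for 10 of the 72 members. These neighbours were singled out after the calls were seen, and their position was not tested. Igf1r (chr7:67952827-68233668, plus, GRCm38), Pgpep1l (chr7:68236610-68264233, minus) and Fam169b (chr7:68273839-68363092, plus) lie 2941 and 9605 bases apart. Pgpep1l, a pyroglutamyl peptidase-like gene, had 5.78, 6.53 and 5.06 CPM in the naive, 14.97, 20.03 and 15.7 CPM in the effector, 3.09, 2.62 and 1.904 CPM in the day 4 and 0.264, 0.238 and 0.878 CPM in the day 14 libraries. Its 4 groups did not overlap, in the order effector, naive, day 4 and day 14. Fam169b, the member with the lowest ratio, had 175, 149.5 and 149.8 CPM in the naive, 334, 366 and 253 CPM in the effector, 96.4, 99.2 and 99.3 CPM in the day 4 and 62.5, 67.9 and 78.04 CPM in the day 14 libraries. Its lower level at day 14 than at day 4 (-0.48 ± 0.12, edgeR adjusted p = 0.0168) was lost without day 4 replicate 3 or day 14 replicate 1 or 2, with adjusted p of 9.20e-05 to 0.0665. Chromosome 7 held 13 of the 72 members (18.1%), against 7.18% of protein-coding genes with an effector mean of at least 10 CPM; 18 members lay within 1000000 bases of another member, and these positions are a description.

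**Figure D4:**
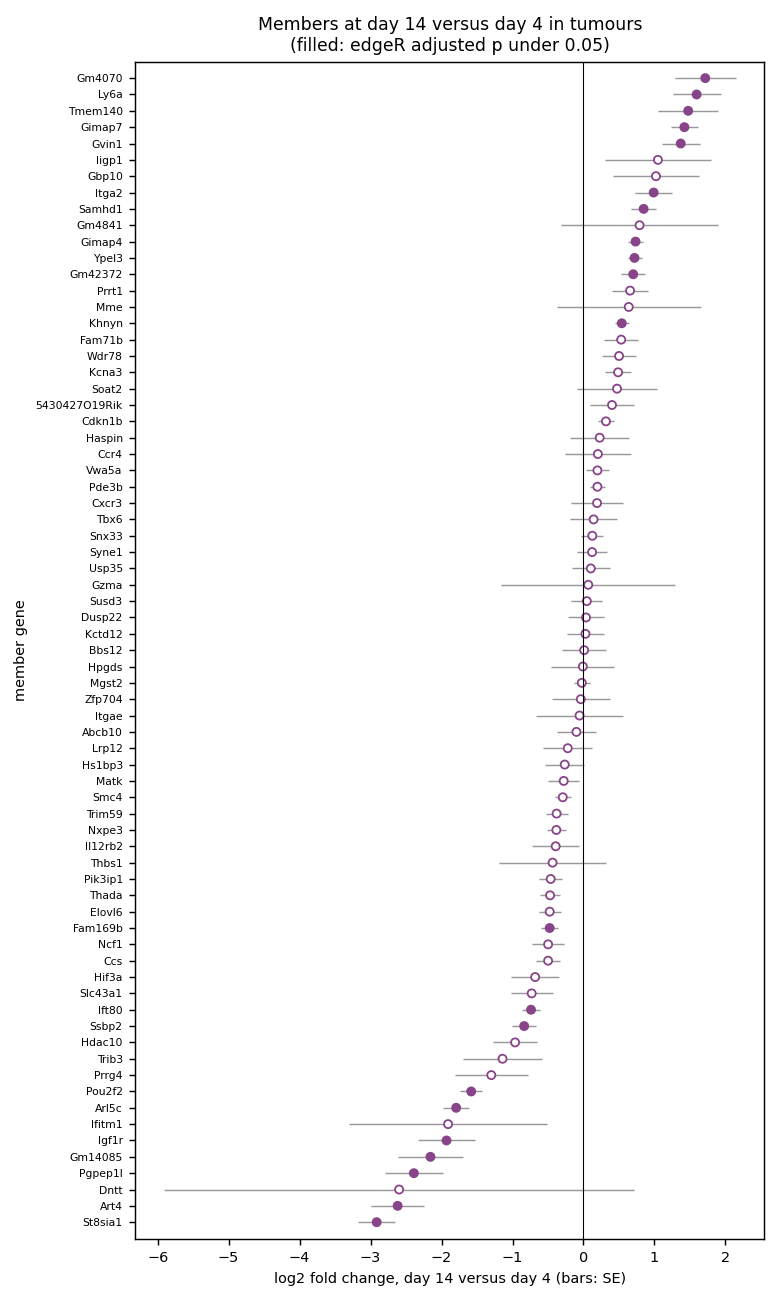
Points are log2 fold changes of 71 members at day 14 versus day 4 with SE bars, ordered by value; filled points have an edgeR adjusted p under 0.05. Of the filled points 11 lie above 0 and 10 below it, from -2.91 for St8sia1 to 1.72 for Gm4070.

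The effector libraries themselves differed for many members. The median CV over the 3 effector libraries was 18.8% for members and 9.65% for protein-coding genes of the same level, and 12 members had a CV over 50%. Effector replicate 2 was the highest library for 42 members (58.3%, against 39.1% of those genes), replicate 3 for 18 (against 25.7%) and replicate 1 for 12 (16.7% against 35.2%). Gzma and Ifitm1 had CVs of 156% and 154%, followed by Gm4841 (90.7%) and Iigp1 (82.2%), all highest in replicate 2. Thbs1 and Dntt were lowest in that library. Itga2, Snx33, Mgst2, Ift80 and St8sia1 differed least, with CVs of 1.91% to 3.23%.

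**Figure D5:**
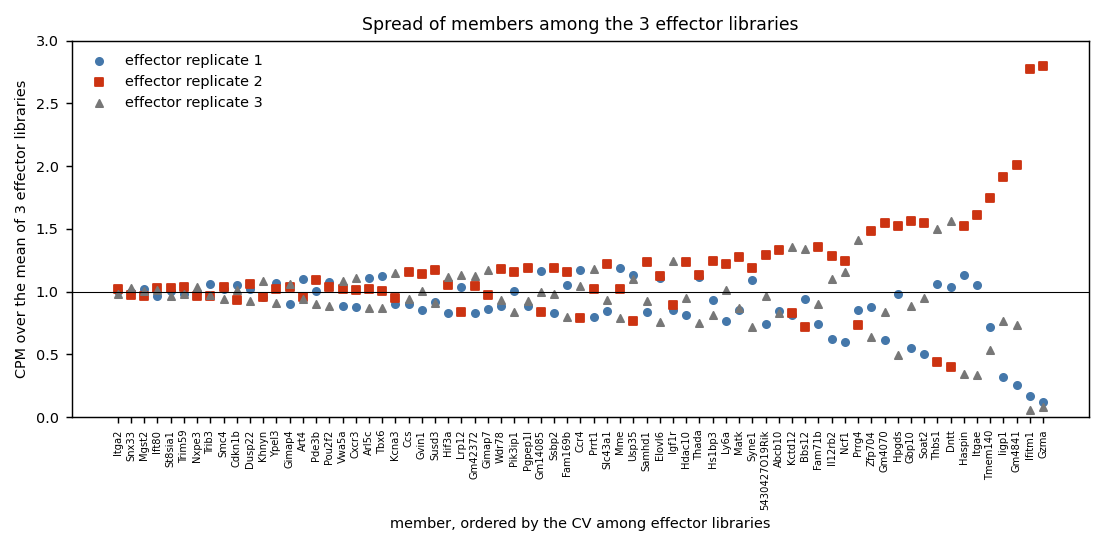
For each of 71 members, ordered by the CV among effector libraries, the CPM of each effector replicate is divided by the mean of the 3. Replicates 1 to 3 lie close to 1 on the left, and replicate 2 rises to more than 2.5 for Ifitm1 and Gzma on the right.

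Leaving out effector replicate 2 left 62 genes that met the rule, of which 55 were members. The 17 lost were Gm4841, Ifitm1, Gzma, Itgae, Zfp704, Haspin, Ly6a, Abcb10, Susd3, Hs1bp3, Il12rb2, Hpgds, Pik3ip1, Pde3b, Matk, Ssbp2 and Fam169b. Without naive replicate 2, 81 genes met the rule, of which 67 were members, and the 5 lost were Cdkn1b, Pde3b, St8sia1, Prrt1 and Fam169b. Gimap4 was lost without naive replicate 1, and Vwa5a, Ssbp2 and Fam169b without naive replicate 3. Ypel3 and Fam169b were lost without effector replicate 1, and Thbs1, Gimap4 and Prrt1 without effector replicate 3. Hpgds was lost without day 4 replicate 1 and without day 14 replicate 2 or 3. The ratio moved by over 1.5 times without effector replicate 2 for Gm4841, Ifitm1, Gzma, Iigp1 and Tmem140, which became lower, and without naive replicate 2 for Mme (5.59 to 10.15) and Gbp10 (3.64 to 6.10). Some lay near the threshold: the lowest ratios inside were 2.04 for Matk, 2.04 for Ssbp2 and 2.004 for Fam169b, and the highest outside were Igtp (1.995), Calcoco1 (1.99) and Gbp6 (1.98). By level, Gm4841 (10.1 CPM), Thbs1 (10.4) and Ifitm1 (10.8) lay just inside and Dtx4 (8.56), Tnfrsf23 (8.02) and Wdr49 (7.05) just outside.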

How the data were processed

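RNA was extracted with Dynabead Direct, and amplified cDNA was tagmented for sequencing, per the labels' protocols; fastp 0.19.6 and STAR 2.6.1b and build GRCm38 are named in the submitters' processing notes. The authors deposited counts of reads per gene for each library, unstranded and per strand; 49.8% to 49.9% of stranded counts were sense, so the unstranded column was used. The 4 summary lines (20.7% to 30.2% of reads outside genes, 5.90% to 7.29% mapping to several places, 3.22% to 3.81% ambiguous, 4.90% to 5.52% unmapped) were left out of totals. The counting options and the annotation release of the authors were not found in the labels or file headers. Of 55401 identifiers, 55141 matched GENCODE M21 and 260 did not.

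CPM was computed here from the deposited counts as count over column total; CPM is not adjusted for gene length, so levels are compared between libraries and not between genes. One fit in edgeR 4.0.16 (R 4.3.3) held all 12 libraries (filterByExpr, TMM, robust quasi-likelihood, 8 residual degrees of freedom), with Benjamini-Hochberg adjustment over 16426 genes in each of 3 contrasts. SE is the log2 fold change divided by the square root of F. On simulated data for day 4 versus naive (15754 genes), the test recovered 86% of 2-fold and 99% of 4-fold changes with 9 false calls. The simulation changed 100 genes by each fold, all above a minimum level, whereas 62.2% of genes were called in the data. These rates therefore may not hold for the data. Alternatives were other scalings, no filter, the 2 compared groups only, the replicate number as a block, DESeq2 1.42.0 and each library left out; a fit of the 9 libraries without effector was added after seeing the data.

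Named genes were the 12 members of highest ratio, the 8 of highest effector mean, up to 5 called members per direction and contrast without overlap and of at least 5 CPM, members of the function lists, those nearest the threshold, and those with the largest and smallest spread; other members are named by role, after their values were seen, with values and no test. The members and lists were chosen with earlier results of these data known, and families, roles and motifs after the member list. No unique molecular identifiers are described, so count intervals and floors cover counting error only. One member is counted in the totals but is not reported here by name or in the figures.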

Additional observations from a re-analysis of the deposited data

How the results depend on the processing

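With a fold of 1.5 in place of 2 the rule gave 227 genes, and with a fold of 3 it gave 22. On TMM-scaled CPM 96 genes met it, among them all 72 members. Members called lower at day 14 than at day 4 numbered 17 without the filter on low counts and 16 in DESeq2, against 10. Leaving out each library in turn gave 62 to 81 genes for the rule, and 65 to 69 members with all effector libraries above all others. In these fits 40 to 49 members were called at day 4 versus naive (7 to 11 higher, 32 to 39 lower), 41 to 48 at day 14 versus naive (7 to 11 higher, 33 to 37 lower) and 16 to 24 between the tumour groups (7 to 13 higher, 9 to 12 lower). All genes called numbered 9543 to 10568, 9511 to 10562 and 1283 to 2206. Between the tumour groups, 7 members were called higher both without day 4 replicate 1 and without day 14 replicate 2. No called member turned its direction under an alternative, and 39 of 46, 39 of 45 and 15 of 22 calls held under all of them. The cause of the lost calls was not tested.

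The labels do not say whether the replicate numbers pair the samples. Deviations of same-numbered libraries correlated at -0.0884 to 0.1015 over 18 pairs, and those of other libraries at -0.077 to 0.0878 over 36. With 3 libraries a group, these correlations cannot decide whether samples were paired. With the replicate number as a block, 46, 45 and 24 members and 10054, 10046 and 1931 genes were called in the 3 comparisons.

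Members with few reads outside effector culture, such as Trib3, limit what comparisons among the other groups can show.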

Other observations

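Outside the protein-coding genes, 18 genes met the same rule, and their effector height is likewise a description. The lincRNA C030034L19Rik had the highest ratio, 48.3, with means of 73.5 CPM in effector and 0.402, 0.544 and 0.200 CPM in naive, day 4 and day 14 cells. Ifngas1, a lincRNA next to Ifng, had means of 76.4 CPM in effector, 21.3 CPM in naive, 1.90 CPM in day 4 and 3.47 CPM in day 14 cells, whereas Ifng had 0, 0.328 and 0.363 CPM in the effector and 123, 94.7 and 73.2 CPM in the day 14 libraries. Gm30948 had 127 CPM in effector and 60.6 CPM in naive cells, 0.0853 CPM at day 4, and no read at day 14. Rn7sk, the small nuclear RNA that inhibits the elongation factor P-TEFb, had 22.2 CPM in effector and 6.83 CPM in naive cells.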
